A study of Mus musculus with 2 samples.

Results

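The genes described here are 10 transcripts of secreted acute phase proteins of the liver: Lcn2, Hp, Hpx, Cp, Crp, Apcs, Lbp, Itih3, Itih4 and Fgl1. They were taken by symbol from the deposited table of TPM values (each a gene's length-corrected share of the transcript pool), as the secreted acute phase genes outside the Saa, Orm, serpin, fibrinogen, complement and metallothionein groups. All 10 were found among the 24054 genes of that table, and all 10 were also in the second, shorter deposited table. The study compared the livers of male C57BL/6 mice, 8 to 12 weeks old, that were either wild type (WT) or hemizygous for a Pgrmc1 deletion (Pgrmc1 KO, Pgrmc1 -/Y). The deletion removed exons 1 and 2 in the whole body, after floxed mice were crossed to Sox2-Cre mice, so it was not limited to hepatocytes. The labels name no treatment. The floxed line was made on C57BL/6N, and whether WT mice were littermates is not stated in the sources used here. RNA of 5 mice per genotype was pooled in equal amounts (2.5 μg per mouse), and each pool was sequenced as 1 library.

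The acute phase response is the change in plasma proteins that the liver makes during inflammation or injury. Interleukin-6 acts through Il6st, Jak kinases and Stat3, and interleukin-1 acts through NF-kB and C/EBP factors, to raise the transcripts of many secreted proteins in hepatocytes. The proteins considered here capture heme, hemoglobin and iron (Hp, Hpx, Cp, Lcn2), bind microbial or damaged surfaces (Crp, Apcs, Lbp), stabilize the hyaluronan matrix (Itih3) or belong to the same heavy chain family (Itih4), or act as a hepatocyte-derived signal (Fgl1).

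With 1 library per genotype, variation among mice is unknown and no difference has a replicate check or a p-value. A pool also gives only the mean of its mice, so a change in all of them and a large change in 1 of them cannot be told apart. The level of Pgrmc1, at 0.68 (KO) and 949.49 TPM (WT), matched the labels of both libraries. The second table holds the authors' mean of each library after scaling, and its low values gave an estimated 22086692 reads for KO and 29710419 for WT on its genes. From those estimated reads, a 95% counting interval was computed for the log2 ratio of the authors' means of each gene, which covers counting error only. A change is log2((KO TPM + 1)/(WT TPM + 1)), and the ratio of a gene is given on that same scale. Alb, which hepatocytes express at high levels, was at 47241.8 TPM (KO) and 49729.1 TPM (WT), and all 8 hepatocyte markers examined were detected, as the liver label would require.

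Of the 10 genes, 8 were higher in KO and 2 were lower. A KO to WT ratio of at least 1.4 was reached by 2 genes, Lcn2 and Fgl1, and a ratio of at most 0.6 by 0. Among the 11623 genes averaging 1 TPM or more, 1.21% passed the upper ratio, 0.301% passed the lower one and 45.8% had a change above 0. At a ratio of at least 1.2, the count was 5 of 10, against 5.39% of those genes, with Itih4, Apcs and Hp added to Lcn2 and Fgl1. Hp reached that ratio only just, at 1.2. The median change of the 10 genes was 0.25, and that of the 11623 genes was -0.01. The 8 of the 10 genes that averaged 100 TPM or more had the same median of 0.25, with 1 past a ratio of 1.4 and 4 past 1.2. In the 1013 genes of that abundance, the shares were 1.78% and 4.15%, 49.9% lay above 0, and the median change was -0.000502. Because these genes were named as acute phase genes with earlier results of the same libraries known, the counts describe them and are not a test.

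**Figure D1:**
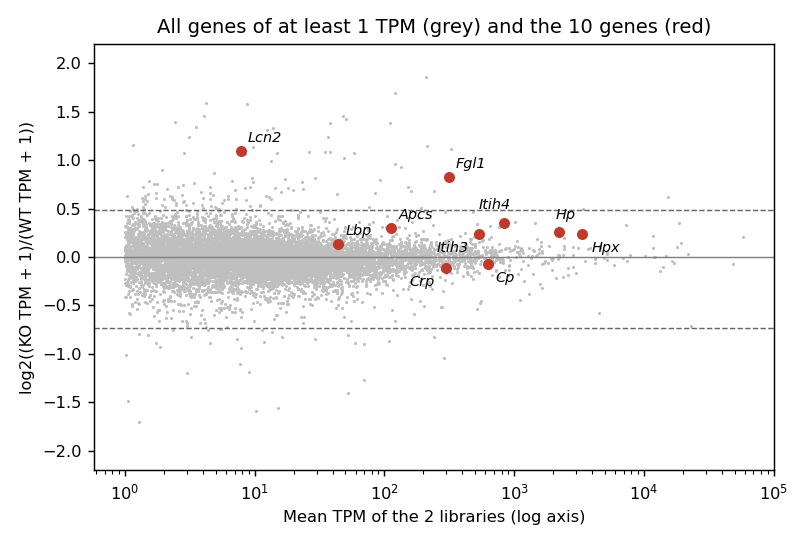
Change between KO and WT, as log2((KO TPM + 1)/(WT TPM + 1)), against the mean TPM of both libraries on a log axis, with 1 point per gene averaging 1 TPM or more; dashed lines mark ratios of 1.4 and 0.6, and 19 genes lie beyond the axis. Lcn2 and Fgl1 lie above the upper line, Hpx, Hp, Itih3, Itih4, Apcs and Lbp lie between 0 and that line, and Crp and Cp lie just below 0.

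The levels of the 10 genes were far apart. In WT, Hpx was the 38th and Hp the 59th most abundant of all transcripts, whereas Lcn2 was 8557th. Hpx and Hp alone made up 66.6% of the summed TPM of the 10 genes in WT and 66.9% in KO. The sum of all 10 was 7679.81 (WT) and 9099.56 TPM (KO), a ratio of 1.18 and an addition of 1419.75 TPM. That sum was 0.772% of the WT transcript pool and 0.905% of the KO pool. Without Hpx, the ratio of the sums was 1.19. The order of the 10 levels was the same in both libraries except for 1 pair. Crp was sixth and Fgl1 seventh in WT, and they changed places in KO. Whether neighbouring levels, such as Cp and Itih3 in KO, differ beyond the spread between mice could not be assessed.

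**Figure D2:**
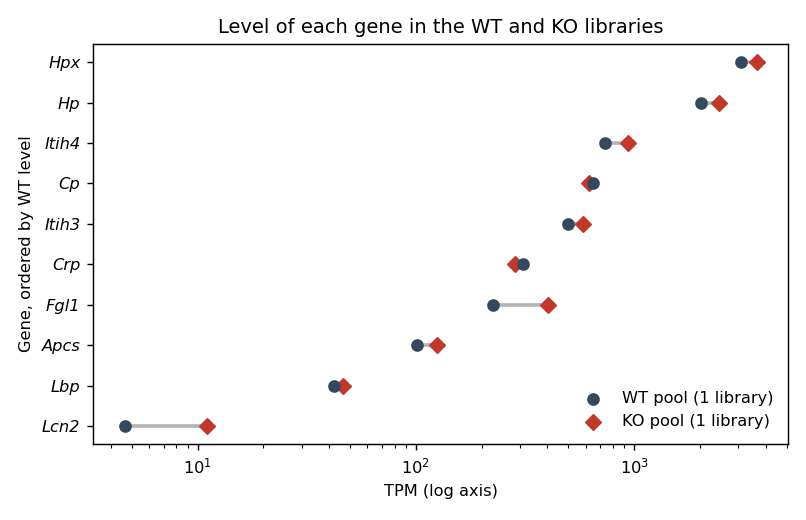
Level of each of the 10 genes in TPM on a log axis, with circles for the WT library and diamonds for the KO library, ordered by WT level. The widest gaps are those of Lcn2 (4.63 TPM in WT, 11.03 in KO) and Fgl1 (225.87 and 402.38), and for Crp and Cp the KO symbol lies to the left of the WT symbol.

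The carriers of hemoglobin and heme were both moderately higher in KO. Haptoglobin (Hp; Entrez gene 15439, chromosome 8, 109575128 to 109579172 of GRCm38.p6) binds free hemoglobin, which macrophages then clear through the receptor Cd163. It was at 2437.23 (KO) and 2030.82 TPM (WT), a change of 0.26 and an addition of 406.41 TPM. Hemopexin (Hpx; gene 15458, chromosome 7, 105591611 to 105600116) binds free heme and is taken up through Lrp1. It was at 3648.39 (KO) and 3084.67 TPM (WT), a change of 0.24. Its addition of 563.72 TPM was the largest of the 10. The 2 transcripts therefore stood in nearly the same ratio to WT, 1.2 for Hp and 1.18 for Hpx. Their counting intervals were narrow and above 0, 0.261 to 0.300 for Hp and 0.244 to 0.274 for Hpx. These intervals belong to the log2 ratios of the authors' means, 0.281 for Hp and 0.259 for Hpx. The TPM change of Hpx, 0.242, lay just below its interval. Estimated reads in KO and WT were 40342.7 and 44847.5 for Hp and 67340.8 and 76006.8 for Hpx. For context, 5.37% of genes averaging 1 TPM or more had a change as high as that of Hp, and 6.35% one as high as that of Hpx. The receptors showed Cd163 at 13.11 (KO) and 10.27 TPM (WT) (change 0.32) and Lrp1 at 208.46 and 201.03 TPM (0.05). Hmox1, the heme-degrading oxygenase, was at 14.74 (KO) and 17.77 TPM (WT), a change of -0.25.

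The 2 metal-handling proteins did not share a direction. Ceruloplasmin (Cp; gene 12870, chromosome 3, 19956933 to 20009750), the copper-carrying ferroxidase of plasma, was at 619.84 (KO) and 649.61 TPM (WT). Its change of -0.07 was close to that of the median gene, and its counting interval ran from -0.08 to -0.04. Hps3 overlaps Cp on the opposite strand, and 0.102% of the 100-base windows of Cp transcripts were also found in Hps3. Slc40a1, the iron exporter with which it works, was at 74.74 (KO) and 79.30 TPM (WT).

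Lipocalin 2 (Lcn2; gene 16819, chromosome 2, 32384637 to 32387739), which captures the siderophores that bacteria use to take up iron, had the largest ratio of the 10 genes. It was at 11.03 (KO) and 4.63 TPM (WT), so that its KO level was the lowest of the 10 despite a ratio of 2.14. On the log2 scale the change was 1.10 with 1 TPM added and 1.23 with 0.1 TPM added, because 1 TPM is large beside a level this low. The log2 ratio of the authors' means, with nothing added, was 1.29. Its counting interval was the widest, 0.81 to 1.78 on the log2 scale, as it rested on 105 estimated reads in KO and 58 in WT, and it lay wholly above a ratio of 1.4. Only 0.318% of genes averaging 1 TPM or more had a change as high. The addition was 6.4 TPM, 0.434% of what the 8 higher genes added together.

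Promoter letters were read for the 7 of the 10 genes with an entry in the RefSeq promoter table (GRCm38.p6), over the 250 bases before the transcription start. They were searched on both strands for TTCNNNGAA, the palindromic form bound by STAT factors, and TTGCNNAA, a form bound by C/EBP factors. A match is a run of letters, not evidence of binding. The first form was in the promoters of 2 of the 7 genes (Apcs and Itih4) and in 7.02% of 32851 promoters. The second was in those of 3 genes (Lcn2, Hpx and 1 of the 2 starts of Cp) and in 9.56% of all promoters. The match of Apcs begins 244 bases before its listed start, near the far end of the window. The bases just after that start were not found near the start of any GENCODE transcript of Apcs. The promoter of Lcn2 is printed 5′ to 3′ because this gene had the largest ratio, with the C/EBP form in capitals (minus strand, chr2:32387740-32387989). Its match begins 216 bases before the start.

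Lcn2: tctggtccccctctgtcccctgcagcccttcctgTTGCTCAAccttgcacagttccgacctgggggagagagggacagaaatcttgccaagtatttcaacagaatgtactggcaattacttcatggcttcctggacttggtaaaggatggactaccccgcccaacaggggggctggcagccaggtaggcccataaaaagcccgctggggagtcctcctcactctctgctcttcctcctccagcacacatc

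The pentraxins moved apart. C-reactive protein (Crp) and serum amyloid P (Apcs) are related ring-shaped proteins that bind surface ligands (phosphocholine for Crp) and activate complement. In mice, Apcs is the stronger acute phase reactant. The genes lie on chromosome 1 with 194 kb between them (Crp, gene 12944, 172698056 to 172699966; Apcs, gene 20219, 172893961 to 172895054). Apcs was at 124.61 (KO) and 101.26 TPM (WT), a change of 0.30 with a counting interval of 0.22 to 0.43. Crp was at 284.89 (KO) and 308.85 TPM (WT), a change of -0.12 with an interval of -0.15 to -0.05. Crp was thus the lowest of the 10 genes, and its interval did not overlap that of Apcs. The higher Apcs and lower Crp nearly cancelled, and the summed level of the pair was 409.5 (KO) and 410.11 TPM (WT). The annotation places another gene, Gm38051, over Crp on the same strand, but no 100-base window of Crp transcripts was found in another gene. The promoter of Crp is printed as that of the lowest gene (plus strand, chr1:172697806-172698055). Neither form was found in it, so it holds no capitals.

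Crp: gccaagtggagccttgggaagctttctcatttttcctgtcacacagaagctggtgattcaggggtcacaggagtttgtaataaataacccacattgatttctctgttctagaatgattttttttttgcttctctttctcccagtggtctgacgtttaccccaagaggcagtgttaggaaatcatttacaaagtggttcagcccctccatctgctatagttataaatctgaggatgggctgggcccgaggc

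Lipopolysaccharide binding protein (Lbp; gene 16803, chromosome 2, 158306493 to 158332852) hands bacterial lipopolysaccharide to Cd14, which passes it to Tlr4 and its partner Ly96. Lbp was at 46.14 (KO) and 41.98 TPM (WT), the smallest increase of the 8 higher genes. The change was 0.13, with an interval of 0.05 to 0.25, and 15.5% of genes averaging 1 TPM or more had one as high. Among its partners, Cd14 was at 3.58 (KO) and 2.08 TPM (WT) (ratio 1.49, on 66 and 51 estimated reads). Tlr4 was at 2.27 and 2.2 TPM, and Ly96 at 5.99 and 8.52 TPM, and the counting intervals of both held 0 (-0.30 to 0.41 for Tlr4, -1.17 to 0.09 for Ly96), whereas that of Cd14 was 0.26 to 1.36.

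The heavy chain genes of the inter-alpha-trypsin inhibitor family were both higher in KO. Itih3 encodes a chain that is carried by bikunin, the product of Ambp, and is transferred to hyaluronan, whereas the Itih4 protein does not bind bikunin. Itih4 (gene 16427, chromosome 14, 30886476 to 30901986) was at 939.28 (KO) and 735.79 TPM (WT), a change of 0.35 with an interval of 0.34 to 0.38. This was the highest ratio (1.28) of the 7 genes above 100 TPM other than Fgl1, and 2.68% of genes averaging 1 TPM or more had a change as high. Itih3 (gene 16426, 30908572 to 30923787) was at 585.77 (KO) and 496.33 TPM (WT), a change of 0.24 with an interval of 0.23 to 0.28. Itih4 and Itih3 are neighbours with 6.59 kb between them, and Itih1 lies 5.39 kb from Itih3. Itih1 was at 430.56 (KO) and 412.69 TPM (WT), a change of 0.06 with an interval of 0.05 to 0.10 that lay below those of both neighbours. Itih2, on another chromosome, was at 729.84 and 707.63 TPM (0.04), and Ambp was at 2529 and 2333.23 TPM (0.12). Within the family, Itih3 and Itih4 therefore stood above the 2 heavy chains and the light chain precursor. The promoter of Itih4 is printed because its gene had the highest ratio among the abundant genes with a promoter entry (plus strand, chr14:30886226-30886475). Capitals mark the STAT form, 51 bases before the start.

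Itih4: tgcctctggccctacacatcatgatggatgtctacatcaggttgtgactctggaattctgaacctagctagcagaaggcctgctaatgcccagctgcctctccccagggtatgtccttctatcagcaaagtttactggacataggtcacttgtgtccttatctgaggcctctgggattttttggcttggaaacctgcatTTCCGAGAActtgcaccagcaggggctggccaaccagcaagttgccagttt

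Fibrinogen-like 1 (Fgl1; gene 234199, chromosome 8, 41191434 to 41217978) is secreted by hepatocytes, promotes their growth and is a ligand of the lymphocyte receptor Lag3. It was at 402.38 (KO) and 225.87 TPM (WT), a change of 0.83 and a ratio of 1.78. Its counting interval was 0.79 to 0.91, on 5382.2 estimated reads in KO and 4024.5 in WT, so depth limited this value far less than that of Lcn2. Only 0.439% of genes averaging 1 TPM or more, and 1.18% of those averaging 100 TPM or more, had a change as high. In absolute terms it added 176.51 TPM, after Hpx, Hp and Itih4 (203.49 TPM). Transcripts of Lag3 were at 0.31 (KO) and 0.20 TPM (WT), too low to compare.

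**Figure D3:**
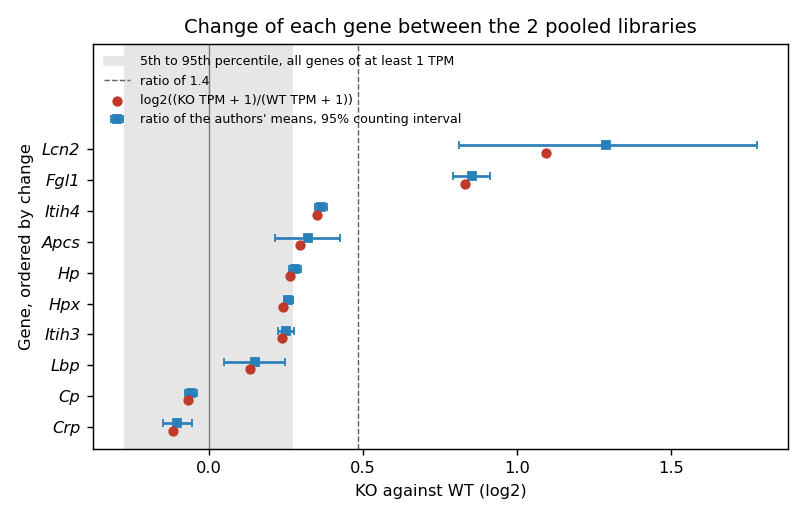
Change of each gene between KO and WT on the log2 scale, ordered by change; red points are TPM with 1 TPM added, blue squares are the ratio of the authors' means with its 95% counting interval (counting error only), and the grey band holds the 5th to the 95th percentile (-0.27 to 0.27) of genes averaging 1 TPM or more. The intervals of 8 genes lie above 0, those of Cp and Crp lie below it, and those of Lcn2 and Fgl1 lie beyond a ratio of 1.4. The share of all genes with intervals that exclude 0 was not computed. At high read counts small differences also exclude 0, as for Trf (log2 ratio of the authors' means 0.03, interval 0.02 to 0.04).

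The other parts of the acute phase response were described from fixed lists, with genes averaging 1 TPM or more. Of 25 acute phase genes of other families, 21 lay above 0, 6 passed a ratio of 1.4 and 0 passed 0.6, with a median change of 0.10. Over all genes averaging 1 TPM or more, 45.8% lay above 0, 1.21% passed 1.4 and 0.301% passed 0.6, and these shares are the background of the other lists as well. The 6 were Saa1, Saa2, Saa3, Orm2, Mt1 and Mt2. Their changes ran from 0.96 for Mt1 to 3.69 for Saa2, whereas the lowest of the list was Hamp at -0.21. Saa1, Saa2, Orm2 and Mt2 had higher ratios than Lcn2, Saa3 and Mt1 had lower ones, and all 6 had higher ratios than Fgl1. The counting intervals of Saa3 (0.73 to 1.68), Mt1 (0.85 to 1.17) and Mt2 (1.17 to 1.76) overlapped that of Lcn2 (0.81 to 1.78). Those of Saa3 and Mt1 also overlapped that of Fgl1 (0.79 to 0.91), so the order within these pairs was not resolved even within counting error. With variation among mice unknown, the other orders given here were not resolved either. Of the 12 secreted negative acute phase genes, which the liver lowers in inflammation, 7 lay above 0 and 0 passed either ratio, a count that the low background share (1.21% up, 0.301% down) would also give. Their changes ran from -0.09 for Ttr to 0.10 for Fetub around a median of 0.01.

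The upstream list was close to the background. Of 26 genes of cytokines, receptors, signal transducers and liver transcription factors averaging 1 TPM or more, 0 passed either ratio (background 1.21% up and 0.301% down), 13 lay above 0 (background 45.8%) and the median change was 0.01. Socs3, the feedback inhibitor that Stat3 induces, was at 6.16 (KO) and 4.79 TPM (WT) (change 0.31, counting interval 0.10 to 0.65). Stat3 was at 53.47 and 46.01 TPM (0.21, interval 0.16 to 0.30). The receptor genes Osmr and Il6ra were lower in KO, at -0.35 (interval -0.79 to -0.19) and -0.15 (interval -0.24 to -0.05). Il6st and Lifr were each at 0.05, so these genes did not share a direction. The highest change was that of Il1b at 0.34, on 26 and 23 estimated reads, and its interval of -0.26 to 1.49 held 0. The lowest was that of Il1r1, the interleukin-1 receptor, at 26.40 (KO) and 35.75 TPM (WT) (-0.42, interval -0.51 to -0.34). Il6 itself was at 0.15 (KO) and 0.06 TPM (WT), with 1 estimated read in KO and 0 in WT. Of 13 partners and receptors of the 10 proteins, 9 lay above 0 and 1 passed a ratio of 1.4 (Cd14), with a median of 0.05 and the lowest change for Ly96 (-0.45, interval -1.17 to 0.09).

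**Figure D4:**
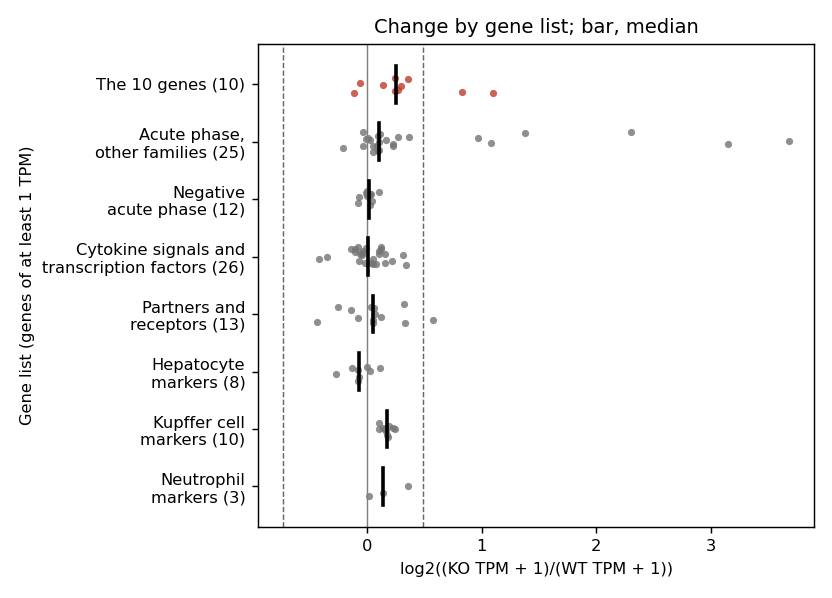
Change between KO and WT, as log2((KO TPM + 1)/(WT TPM + 1)), with 1 point per gene averaging 1 TPM or more in each list, the number of genes in brackets, a bar for the median and dashed lines at ratios of 1.4 and 0.6. The median is 0.25 for the 10 genes, 0.10 for other acute phase families, and 0.01 for the negative acute phase and the upstream lists.

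Markers of cell types were set beside these values, since hepatocytes make most of these proteins and neutrophils and macrophages make Lcn2 as well. In bulk liver RNA, fewer cells of a type and less RNA per cell cannot be told apart. The 8 hepatocyte markers had a median change of -0.08, with 2 above 0, from -0.28 for Tat to 0.11 for Cyp2e1. Of the 9 neutrophil markers in the table, 3 averaged 1 TPM or more, their median was 0.14 (from 0.01 for S100a8 to 0.36 for S100a9), and the summed level of the 9 was 9.31 (KO) and 8.32 TPM (WT). S100a8 rested on 6 and 8 estimated reads in KO and WT, and S100a9 on 17 and 16. The counting intervals of S100a8 (-1.79 to 1.74), S100a9 (-0.55 to 1.60) and Cxcr2 (-0.20 to 0.62) held 0. The granule genes Mpo, Elane, Ltf, Ngp and Camp were each below 0.5 TPM in both libraries. All 10 Kupffer cell markers lay above 0, with a median of 0.17, from 0.10 for Vsig4 to 0.24 for C1qa. They summed to 399.99 (KO) and 352.73 TPM (WT). Counting intervals held 0 for Vsig4 (-0.05 to 0.30), Timd4 (-0.17 to 0.54), Marco (-0.04 to 0.45) and C1qc (-0.02 to 0.27). Those of the other Kupffer cell markers lay above 0. The part of neutrophils and Kupffer cells in the level of Lcn2 was not tested. Stellate cell markers had a median of -0.15 (3 of 8 above 0, from -0.22 for Hgf to 0.17 for Lrat), sinusoidal endothelial markers -0.10 (0 of 7, from -0.60 for Lyve1 to -0.01 for Stab1) and cholangiocyte markers -0.12 (1 of 4, from -0.59 for Epcam to 0.01 for Krt19). Red cell transcripts had a median of -0.14, and of these 5 genes Hbb-bs alone passed a ratio of 0.6, at -0.89, while Hba-a1 was at 0.19. That median was the change of Hba-a2, whose log2 ratio of the authors' means was -0.01 (interval -0.08 to 0.06). Hbb-bt was at -0.27 in TPM but at 0.04 in those means (interval -0.12 to 0.21). The direction of the red cell median therefore depended on the measure. Of the adipocyte markers, Cfd alone averaged 1 TPM or more, at 5.46 (KO) and 1.55 TPM (WT), and Adipoq, Plin1 and Lep were at or below 0.10 TPM in both libraries.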

How the data were processed

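Per the labels, liver RNA of each genotype was pooled and made into 1 stranded total RNA library. The authors ran RSEM 1.2.09 with Bowtie on paired 100-base reads against mm10 and deposited a TPM value per gene as a posterior mean. The KO values add up to 1005325 and the WT values to 994702, and how they were scaled is not given in the sources used here. The authors also deposited, from EBSeq, the size-factor-scaled signal of each library (the authors' means). The columns of fold changes and probabilities in that table are the authors' own comparison and were not used. The headings of the means do not name a genotype and were matched through the study's supplementary headings for the same values.

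The value of 1 read was taken as the most frequent low value of the authors' means (1.16 in KO, 0.860 in WT). Within 0.02, 78.4% and 75.0% of values were whole reads, so no count test was run. Intervals are Clopper-Pearson intervals at 95%, from rounded estimated reads. The functions were tested on simulated data. Alternatives were a pseudocount of 0.1 TPM, the authors' means, 2 other scalings, filters on low values, other ratios and, for promoter letters, a window of 100 bases. A ratio of 1.4 or 0.6 follows the 40% limits of the study. Genes named are the 10, Pgrmc1, Alb, and in each list those past either ratio with the highest and the lowest; other partner, upstream and marker genes were named after their values were seen. The 10 genes and the lists were chosen with earlier results of these data known. Coordinates and promoters are from RefSeq on GRCm38.p6, the assembly of mm10, and shared 100-base windows are from GENCODE transcripts (either strand). Computation used scipy 1.17.1, pandas 2.3.3 and numpy 2.4.6 under Python 3.11.15, and plots matplotlib 3.10.9.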

Additional observations from a re-analysis of the deposited data

How the results depend on the processing

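No paired analysis was possible because there was a single library of either genotype. The changes of the 10 genes kept their sign in 40 of 40 values with 0.1 TPM added, with the authors' means, after centring on the median gene and after rescaling without the 50 most abundant genes, and 39 of the 40 moved by less than the counting error. The count past a ratio of 1.4 was 2 in each of these, 1 when only genes averaging 10 TPM or more were kept (Lcn2 leaves), 1 at a ratio of 2 (Lcn2 alone) and 5 at a ratio of 1.2. The count of lower genes was 0 throughout. Centring and rescaling shift the 10 genes nearly alike. Cp, with the smallest change (-0.07), went to -0.05 after centring and stayed at -0.07 after rescaling. The signs kept under these 2 scalings could therefore not have changed and are no separate check. The log2 ratio of the summed levels was 0.24 in TPM, 0.23 with the authors' means and 0.26 after centring, and both moves exceed its counting error. Of 7 genes with a promoter entry, the STAT form was in 1 and the C/EBP form in 1 when the window was narrowed to 100 bases, which holds them in 2.55% and 3.43% of all promoters. The share of genes past a ratio of 1.4 was 1.21% at 1 TPM or more and 1.78% at 100 TPM or more, the second limit being chosen after seeing the data.

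The intervals cover counting error only, and a pool holds no measure of the variation among its mice. Lcn2 rests on 105 and 58 estimated reads, and the next fewest reads are the 1427 and 1543 of Apcs. The move of the summed level after centring follows from the subtraction of the median change of -0.01. Counts and shares at other ratios, filters and windows follow from those settings. Among the changes of single genes, only that of Hpx moved beyond counting error, from 0.242 in TPM to 0.259 with the authors' means. For this move and that of the summed level with the authors' means, the cause was not tested.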
